A study of Mus musculus with 8 samples.

Results

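*Fbxo15* and *Zfp296* are genes linked to pluripotency that stand in the study's list of genes enriched in RA-Zscan4+ cells, each named there for 1 of the 42006 probes of the array. They were taken by name from that list of 128 named probes, which had been drawn up on the RA pair, so their RA difference chose them and is given here as a description. Cells of the 129/Sv embryonic stem cell (ESC) line ES [129.3:zscan4cEmgfp], in which *Zscan4c* regulatory sequence drives the green Emerald reporter, were sorted by fluorescence after culture in regular medium (RM) or with retinoic acid (RA). The groups were RM-Zscan4+ (n = 3 arrays), RM-Zscan4- (n = 3), RA-Zscan4+ (n = 1) and RA-Zscan4- (n = 1), with RM arrays labelled as biological replicates. Every array carried sorted cells in Cy3 and the Universal Mouse Reference, a pooled cell line RNA, in Cy5. All groups carried the reporter and came from a single line, so the sort reads *Zscan4c* promoter activity and not Zscan4 protein.

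Fbxo15 is an F-box protein, the part of an SCF (Skp1, cullin, F-box) ubiquitin ligase that recognises the substrate. The gene is a known target of Oct4 and Sox2 in ESCs and the early embryo, its locus carried the selection cassette in the first reprogramming of fibroblasts, and ESCs without it still self-renew. Zfp296 is a C2H2 zinc finger protein of ESCs and germ cells that raises the yield of reprogramming when added to the Oct4, Sox2 and Klf4 factors. Retinoic acid is widely used to move ESCs out of the pluripotent state, and *Zscan4*, a SCAN domain zinc finger gene, is expressed at any time in a small share of an ESC culture and in the 2-cell embryo.

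The promoter of *Zfp296* is shown because it holds the octamer, the sequence that Oct4 and other POU factors recognise, written in capitals. The stretch is from RefSeq (GRCm38.p6, chr7:19577116-19577243, + strand), lies upstream of the start of the gene, and has the octamer 111 to 104 bases before that start.
Zfp296 promoter: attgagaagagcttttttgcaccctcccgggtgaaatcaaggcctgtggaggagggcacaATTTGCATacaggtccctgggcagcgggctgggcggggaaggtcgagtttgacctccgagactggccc
The octamer ATTTGCAT, searched on both strands of windows running from 250 bases before to 50 bases after the start, was in 570 of 32851 RefSeq promoter windows (1.74%). The SOX motif ACAATG was in 12.6% of the windows and not in that of *Zfp296*. Exact forms of a retinoic acid receptor element, AGGTCA repeated after 5 or after 2 bases of any kind, were each in 3 windows (0.00913%). They were not in the window of *Zfp296* either, but nearly every window lacks them, so their absence tells nothing about receptor binding. The octamer match is a description of letters and not of a bound site, and the promoter of *Fbxo15* was not analysed here.

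Each array had a probe of 60 bases for either gene. The final 30 bases of the *Zfp296* probe are shown because they carry the letters of the polyadenylation signal, AATAAA, in capitals, which start at base 45 of the probe and leave 10 bases after it.
Zfp296 probe, bases 31 to 60: cttttctctgtgtgAATAAAccatctcctt
These letters were in 6.75% of all probes. No other of the 42005 probes shared a stretch of 20 bases with either member's probe.

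*Zscan4* itself checked the sort. Its ratio to the reference was 27.8-fold higher in RM-Zscan4+ than in RM-Zscan4- (log2 4.80, SE 0.27, adjusted p = 0.00378, limma) and 19.1-fold higher on the RA-Zscan4+ array than on the RA-Zscan4- array. By Cy3 alone, explained with *Fbxo15*, these were 76.2-fold and 121.0-fold, so which medium had the larger difference depended on the scale. Across the array, 146 of 42006 probes (0.348%) were higher in RM-Zscan4+ at an adjusted p under 0.15, the study's false discovery rate, 21 were lower, and 81 (0.193%) were also at least 3-fold higher. RM arrays of the same replicate number deviated together (r across probes 0.388, 0.562 and 0.592). The time stamps of image extraction put RM replicates 1 and 3 in a batch, RM replicate 2 in another, and the RA pair in a batch of its own, so that the batch cannot be told apart from RA. No table given here pairs the probes with genes, so of the array only the 128 listed probes have names, and a list of 21 pluripotency genes, the SCF partners of Fbxo15 and the markers of ESCs, feeder fibroblasts and differentiated cells could not be looked up. From the study's list, 5 genes were set here as markers of 2-cell-like cells (*Zscan4*, *Tcstv1*, *Tcstv3*, *Zfp352* and *Tdpoz5*). They were higher in RM-Zscan4+ in 5 of 5 cases, by 0.84 to 5.10 on the log2 scale, each at an adjusted p under 0.15 (limma). By Cy3 alone *Tdpoz5* lost its call (adjusted p = 0.321, limma). The list names further genes of the Zscan4 state, which were not counted. It was drawn up on the same series, so the 5 of 5 is no independent evidence.

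*Fbxo15* had a Cy3 signal at least 12.6 times the 95th percentile of the negative controls on all 8 arrays, Zscan4- cells included. It was higher in the Zscan4+ cells of every RM pair, a direction whose share over all probes was not counted. It was also higher in the Zscan4+ cells of the RA pair, on which it was chosen. Its log2 ratio to the reference was 5.22, 5.56 and 4.80 in RM-Zscan4+ replicates 1 to 3. It was 4.02, 4.84 and 4.14 in RM-Zscan4-. The group means were 5.19 ± 0.38 and 4.33 ± 0.44 (SD, n = 3 each), and the groups overlapped, because RM-Zscan4- replicate 2 lay above RM-Zscan4+ replicate 3. Within pairs the difference was 1.20, 0.72 and 0.66, a mean of 0.86 or 1.82-fold. The fit without pairing (SE 0.28, adjusted p = 0.566, limma) did not pass the threshold. With the replicate number as a block the SE was 0.13.

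The samples' own dye gave *Fbxo15* a larger difference. The signal used was processed Cy3, which Feature Extraction had already dye-normalised within each array. Scaled to the 75th percentile of each array, log2 Cy3 was 2.90, 3.61 and 2.73 in RM-Zscan4+ and 1.11, 1.15 and 1.14 in RM-Zscan4-, with no overlap. By Cy3 alone the RM difference was 1.94 or 3.85-fold (SE 0.25, adjusted p = 0.0155, limma), past the threshold, and it ranked 83 among all probes against 422 by ratio. By this scale 128 of 42006 probes (0.305%) were called higher, and 1303 of 41161 (3.17%) had RM groups that did not overlap. With the replicate number as a block the ratio passed too (adjusted p = 0.11, limma), where 809 probes (1.93%) were called. It also passed after normexp background correction with loess (log2 1.10, adjusted p = 0.14, limma), where 198 probes (0.471%) were called.

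The Cy5 signal of *Fbxo15* moved with its Cy3 signal, although the reference RNA was the same on every array, and the ratio, which divides by Cy5, was smaller by that amount. Processed Cy5 was 534.5, 630.3 and 567.6 intensity units on the RM-Zscan4+ arrays and 344.8, 189.0 and 320.1 on the RM-Zscan4- arrays. On the RA-Zscan4+ array it was 361.5 and on the RA-Zscan4- array 166.0, so Cy5 was higher on the Zscan4+ array of all 4 pairs. Scaled like Cy3, the RM rise of Cy5 was 1.08 on the log2 scale, a size that 0.051% of 41161 probes reached, and the RA rise was 1.06, which 0.107% of probes reached. These Cy5 signals were dim, between 1.67 and 7.78 times the 95th percentile of the negative controls and between percentiles 7.38 and 42.8 of the array. The rise of Cy5 above local background was between 3.5% and 9.18% of the rise of Cy3 in the same pair. *Zscan4* showed such a rise as well, with processed Cy5 2.89-fold, 3.19-fold and 2.14-fold higher on the Zscan4+ array of the RM pairs and 6.51-fold in RA. Its Cy5 was between 9.39 and 62.8 times the same percentile of the negative controls, and its Cy5 rise was between 3.42% and 5.54% of its Cy3 rise. What moved the reference signal was not tested.

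*Zfp296* had a Cy3 signal between 32.0 and 297.0 times that percentile. It was higher in the Zscan4+ cells of every RM pair, again with no count over all probes. It was also higher in the Zscan4+ cells of the RA pair, on which it was chosen. Its log2 ratio was 3.28, 3.72 and 3.62 in RM-Zscan4+ replicates 1 to 3. It was 2.12, 2.42 and 3.21 in RM-Zscan4-. The means were 3.54 ± 0.23 and 2.58 ± 0.57 (SD, n = 3 each), and the groups did not overlap, with a gap of 0.06 between RM-Zscan4+ replicate 1 and RM-Zscan4- replicate 3, whereas 2046 of 41161 probes (4.97%) had RM groups apart in this direction. The pairs differed by 1.16, 1.30 and 0.41, a mean of 0.95 or 1.94-fold. The fit without pairing (SE 0.29, adjusted p = 0.517, limma) did not pass the threshold. With the replicate number as a block the SE was 0.19.

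For *Zfp296* both readings gave nearly the same size. By Cy3 alone the difference was 1.02 or 2.03-fold (SE 0.30, adjusted p = 1.0, limma), and with the replicate block the ratio had an adjusted p of 0.164 (limma). Cy3 alone with the replicate block, chosen after seeing the data, gave an adjusted p of 0.126 (limma), where 477 probes (1.14%) were called. Its Cy5 signal lay between 1666.7 and 2248.1 intensity units on all 8 arrays, at percentiles 67.7 to 74.4, and its RM change of 0.06 was reached by 25% of probes. Above local background, its Cy5 rise was 6.92%, -2.2% and 14.0% of its Cy3 rise in the RM pairs and 8.99% in RA. In intensity units these rises were 215.1, -47.7, 76.9 and 153.5, against 121.7, 152.1, 175.7 and 117.4 for *Fbxo15*. The RM-Zscan4- replicate 3 array was the highest of its group for *Zfp296* and also for *Zscan4*, with log2 ratios of 3.21 and 0.98. Without that array the *Zfp296* difference was 1.27 and passed the threshold (adjusted p = 0.141, limma), where 135 probes (0.321%) were called.

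**Figure D1:**
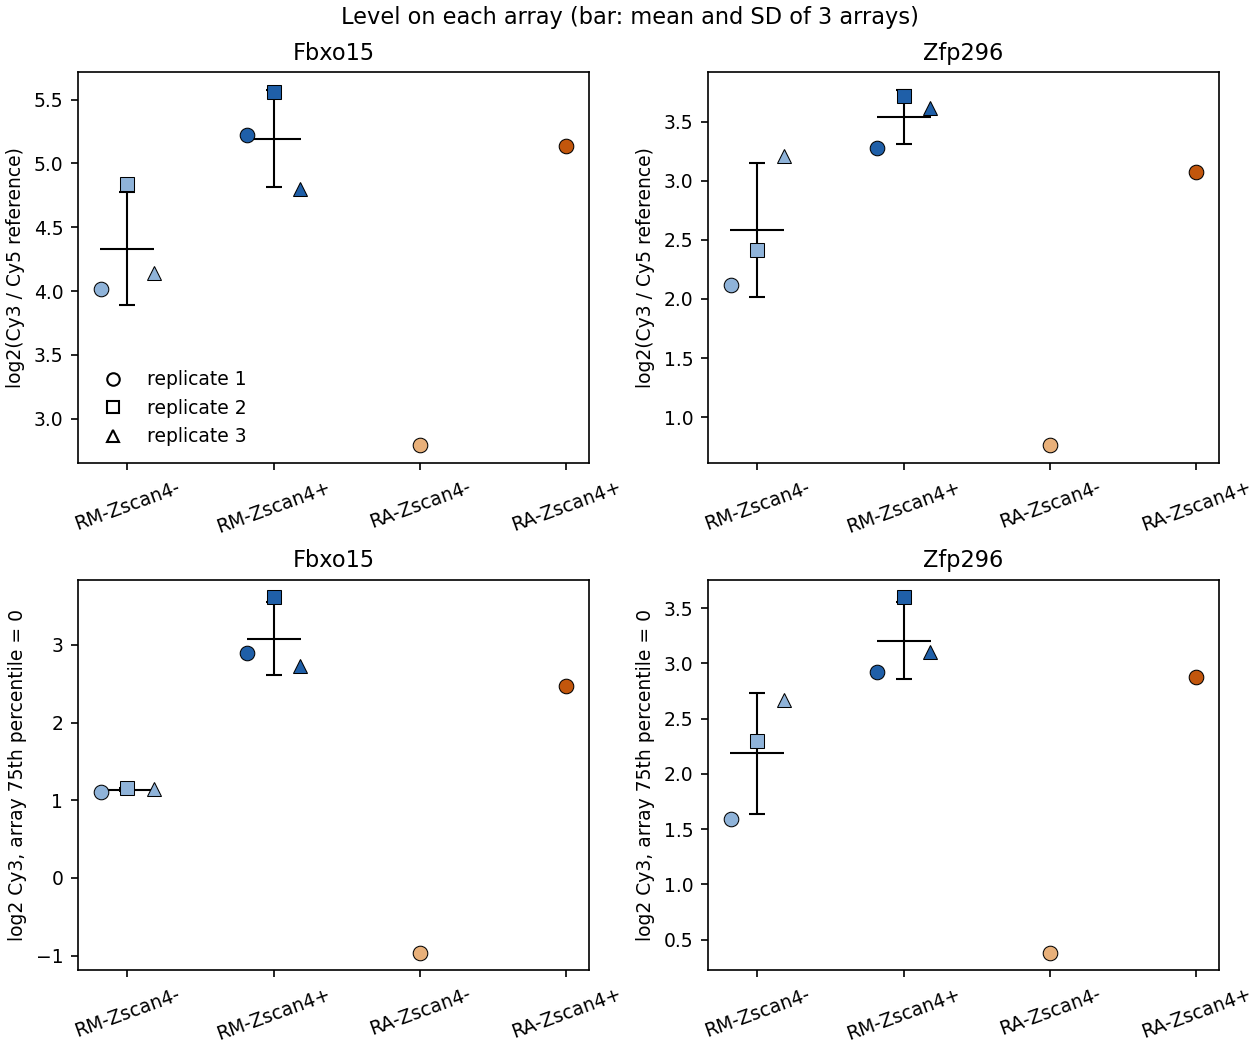
Level of *Fbxo15* (left) and *Zfp296* (right) on each of the 8 arrays, as the log2 ratio to the reference (top) and as log2 Cy3 scaled to the 75th percentile of the array (bottom). Marker shape is the replicate, bars are the mean and SD of 3 RM arrays; the RM-Zscan4- arrays of *Fbxo15* lie between 1.11 and 1.15 in the lower panel, and the RA-Zscan4- array is the lowest in all 4 panels.

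**Figure D2:**
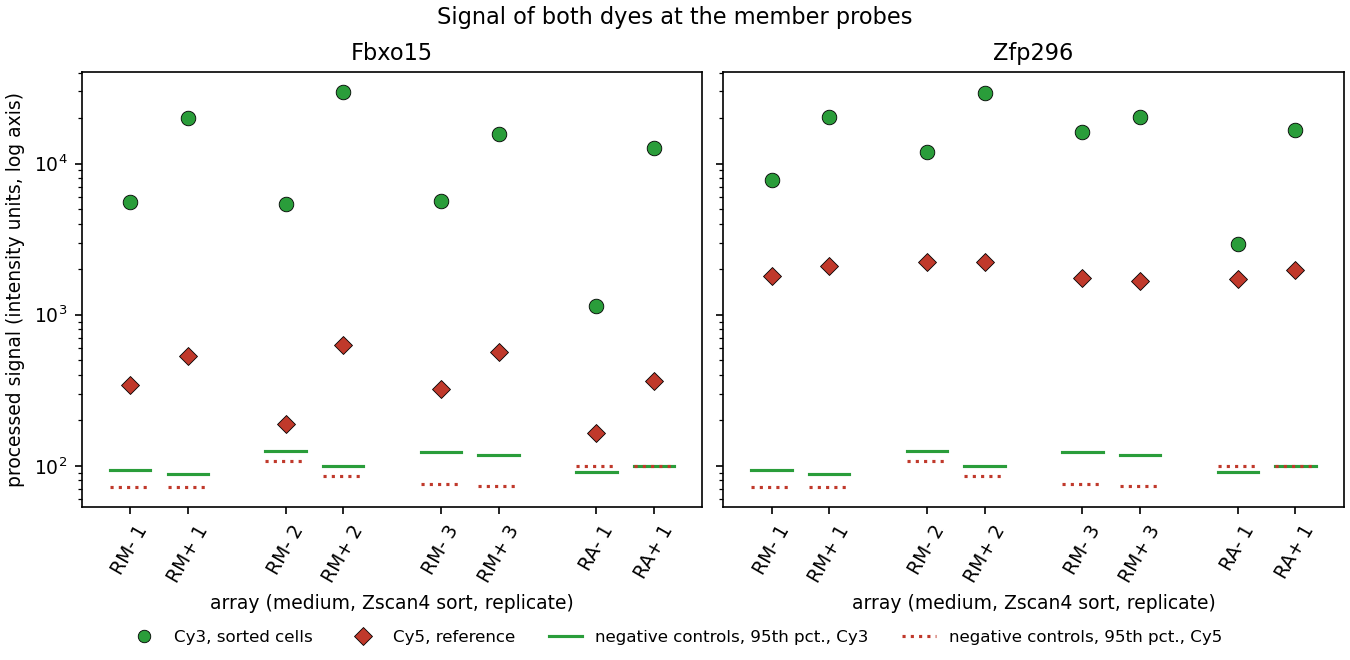
Processed Cy3 (sorted cells, circles) and Cy5 (reference, diamonds) signals of both probes on a log axis, array by array, with lines at the 95th percentile of the negative controls. The *Fbxo15* Cy5 signal is higher on the Zscan4+ array of each pair, from 166.0 to 630.3 over the 8 arrays, while that of *Zfp296* stays between 1666.7 and 2248.1.

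In the RA pair, the contrast on which the genes were chosen, the differences were close to each other. *Fbxo15* had a log2 ratio of 5.14 on the RA-Zscan4+ array and 2.79 on the RA-Zscan4- array, 5.08-fold apart. *Zfp296* had 3.08 and 0.76, 4.98-fold apart. By Cy3 alone these were 10.8-fold and 5.62-fold. At the 3-fold limit of the list, 204 of 41958 probes (0.486%) reached it. The listed probe just inside was *BC038328* at 3.02-fold, and the probe just outside, without a name here, was at 2.99-fold. The listed probe *B020006M18Rik* was at 2.55-fold, and 121 of the 128 listed probes had a value on both RA arrays. The list was therefore not exactly a 3-fold cut on these values. With 1 array each, there is no replicate check on these values.

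For both genes the RA array lay further below the RM mean in Zscan4- cells than in Zscan4+ cells. This describes values that chose the genes, with no replicate in RA. For *Fbxo15* the order of levels was RM-Zscan4+ (5.19), RA-Zscan4+ (5.14), RM-Zscan4- (4.33) and RA-Zscan4- (2.79), and by ratio the RA-Zscan4+ value lay within the range of the RM-Zscan4+ arrays, 0.06 below their mean. By Cy3 alone it was 2.47, below the lowest RM-Zscan4+ array (2.73) and 0.61 below their mean (SD 0.47). For *Zfp296* the order was the same (3.54, 3.08, 2.58 and 0.76), with RA-Zscan4+ by ratio below the lowest RM-Zscan4+ array and inside the range of the RM-Zscan4- arrays. By Cy3 alone its RA-Zscan4+ value was 2.88, below the lowest RM-Zscan4+ array (2.92) and above the highest RM-Zscan4- array (2.66). The RA-Zscan4- level was below every RM-Zscan4- array for both genes, 2.91-fold below their mean for *Fbxo15* and 3.53-fold for *Zfp296*. By Cy3 alone the RA-Zscan4- levels were 4.27-fold and 3.48-fold below.

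Most listed probes did not share that low RA-Zscan4- level, which is part of the contrast that chose the genes. Of the 127 listed probes with the values needed, 29 were lower on the RA-Zscan4- array than on every RM-Zscan4- array, against 31.8% of all 41551 probes, and the median listed probe differed by 0.07 on the log2 scale. *Zfp296* and *Fbxo15* stood 3 and 4 from the low end of the 127, after *Slc27a2*, a fatty acid transporter and acyl-CoA synthetase (-2.61), and *Jam2*, a junctional adhesion molecule (-1.82). Differences as low were found for 0.132% of all probes in the case of *Zfp296* (-1.82) and 0.27% in that of *Fbxo15* (-1.54). *Zscan4* went the other way, with an RA-Zscan4- log2 ratio of 1.88 against a mean of 0.43 in RM-Zscan4-. The RA arrays were a batch of their own, so for these levels too batch cannot be told apart from RA. Fewer cells expressing a gene and less RNA per cell cannot be told apart in such bulk samples either.

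Set against each other, neither gene had the larger change in every pair by ratio. The *Fbxo15* difference minus that of *Zfp296* was 0.05, -0.58 and 0.25 by ratio for RM replicates 1 to 3, and 0.03 for RA. Taken from Cy3, it was 0.46, 1.16 and 1.15 for the same replicates and 0.94 for RA, higher for *Fbxo15* in all 4 pairs. The difference between the genes was not tested.

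Both genes sat near the middle of the list by RA difference and lower by RM ratio, whereas *Fbxo15* stood higher by RM Cy3 alone. By RA difference *Fbxo15* ranked 72 and *Zfp296* 75 of the 121 listed probes that both RA arrays measured. By RM ratio they ranked 96 and 88 of 128, and by RM Cy3 alone 49 and 88. The listed probes had a median RM difference of 1.43 (2.70-fold) and a median RA difference of 2.62 (6.14-fold), while the medians over all probes were -0.01 and -0.02. In RM 75 of the 128 passed the threshold, against 0.348% of all probes, and 101 did with the replicate block, against 1.93%. Those within 0.25 of *Fbxo15* in RA difference, 25 probes, had RM differences from -0.42 to 2.68 with a median of 1.21. Next above *Fbxo15* in RA stood *LOC545920*, with an RM difference of 2.15 (adjusted p = 0.00934, limma), and next below it *Zfp352*, with 1.76 (adjusted p = 0.0931, limma). Next to *Zfp296* stood *EG668730*, with 1.03 (adjusted p = 0.219, limma), and *Prkch*, a protein kinase C isoform, with 1.01 (adjusted p = 0.101, limma).

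**Figure D3:**
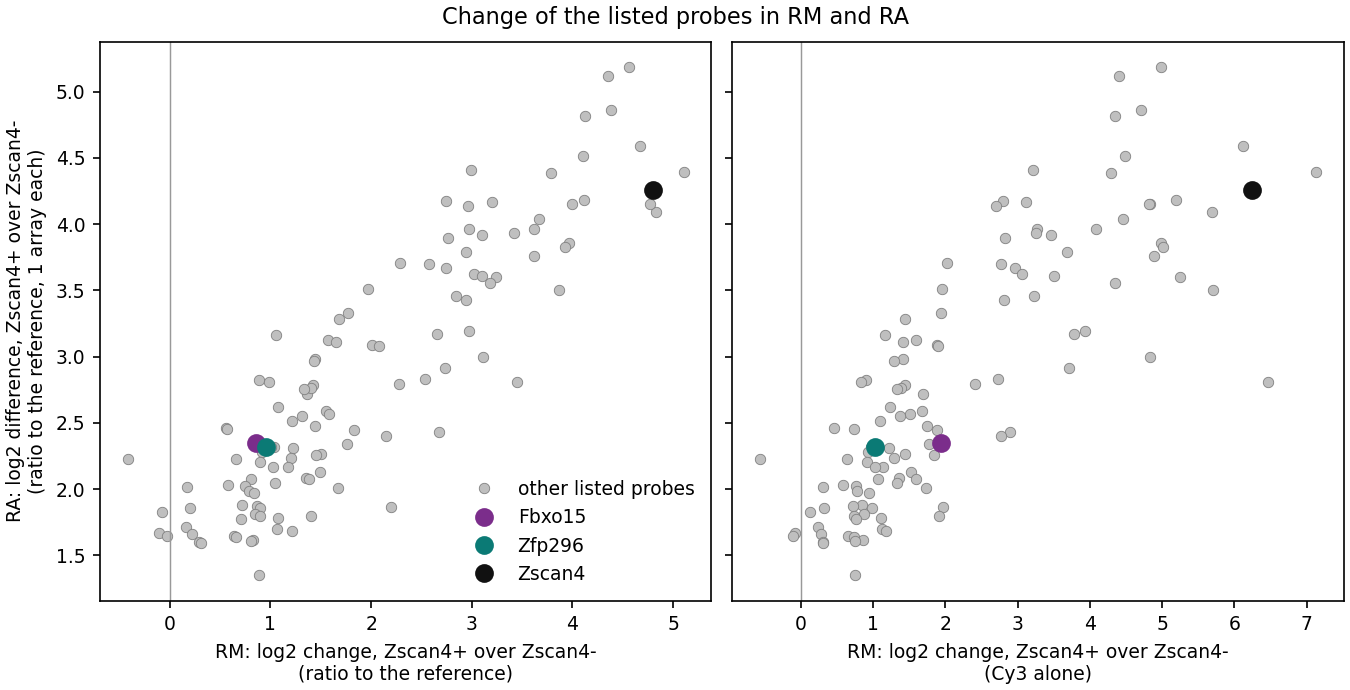
RA difference by ratio (vertical, 1 array each) against the RM change (horizontal) of 121 listed probes, by ratio on the left and by Cy3 alone on the right, on log2 scales. *Fbxo15* moves from 0.86 to 1.94 between the panels and *Zfp296* from 0.95 to 1.02, both below *Zscan4*.

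Among the ubiquitin system genes of the list, 2 of 5 passed the RM threshold upward and 0 downward (2 by Cy3 alone, 4 with the replicate block). Their median RM difference was 0.86, against 1.43 over the listed probes they were picked from and -0.01 over all probes. Over all probes 0.348% passed, 0.305% by Cy3 alone and 1.93% with the block. Of the 128 listed probes 75 passed, 69 by Cy3 alone and 101 with the block. *Lonrf3*, a LON and RING finger protein, rose by 2.01 (adjusted p = 0.012, limma), from -1.26, -1.74 and -1.54 in RM-Zscan4- to 0.37, 0.76 and 0.38 in RM-Zscan4+. *Tdpoz5*, a TRAF and POZ domain gene, rose by 0.84 (adjusted p = 0.0108, limma), a call lost by Cy3 alone (adjusted p = 0.321, limma), where *Fbxo15* and *Lonrf3* were the 2 that passed. Its pairs differed by 0.81, 0.90 and 0.83, so that a smaller difference than that of *Fbxo15* passed with an SE of 0.07. *Cand1*, which exchanges the F-box subunits of SCF ligases, had a difference of 1.77 (adjusted p = 0.185, limma), with no value on RM-Zscan4- replicate 3, where its spot had an outlier flag. *Dub2*, a deubiquitinating enzyme gene, had 0.83 (adjusted p = 0.341, limma). Their RA differences were 8.49-fold for *Lonrf3*, 3.51-fold for *Tdpoz5*, 10.0-fold for *Cand1* and 3.92-fold for *Dub2*. By Cy3 alone the RM differences of *Fbxo15*, *Cand1* and *Lonrf3* were 1.94, 1.94 and 1.89.

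Among the zinc finger and SCAN domain genes, 4 of 5 passed the RM threshold upward and 0 downward (3 by Cy3 alone, 4 with the replicate block). The shares of all probes were the same 0.348%, 0.305% and 1.93%, but of the 128 listed probes 75 passed by ratio. The 4 include *Zscan4*, on whose reporter the cells were sorted. The median of the 5 was 1.38, against 1.43 over the listed probes, and *Zfp296* was the exception by ratio. Beside *Zscan4*, *Zfp809*, whose protein silences retroviral sequence in ESCs, rose by 1.33 (adjusted p = 0.128, limma), a call lost by Cy3 alone (adjusted p = 0.315, limma). *Zfp352*, a 2-cell stage gene, rose by 1.76 (adjusted p = 0.0931, limma), from -0.01, 0.01 and 0.04 in RM-Zscan4- to 1.44, 2.34 and 1.53 in RM-Zscan4+. *Rex2* rose by 1.38 (adjusted p = 0.0931, limma). By RA difference *Zfp296* (4.98-fold) stood between *Zfp352* (5.06-fold) and *Rex2* (4.21-fold), and *Zfp809* was at 6.77-fold. The members of both sets were picked from a list drawn up on these arrays, so the counts are no independent evidence of direction.

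**Figure D4:**
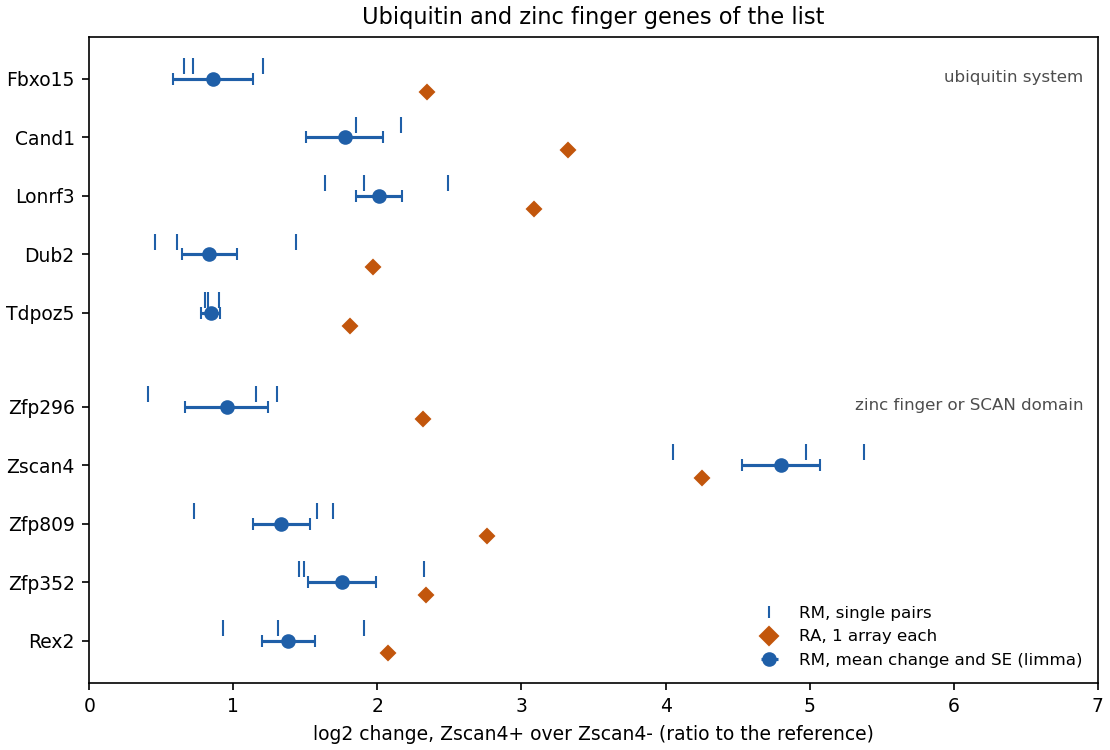
Log2 change from Zscan4- to Zscan4+ by ratio for 5 ubiquitin system genes and 5 zinc finger or SCAN domain genes of the list. Circles with bars are the RM mean change and its limma SE, ticks the single RM pairs and diamonds the RA pair; *Fbxo15* and *Zfp296* have RM changes of 0.86 and 0.95, and *Tdpoz5* the shortest bar (SE 0.07).

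The profile over all 8 arrays, each probe centred on its own mean, was nearest to that of *Zfp296* for *Jam2*, with a root mean square difference of 0.20 on the log2 scale, and none of the 41112 probes with 8 values was nearer. *LOC434179* (0.42), *Fbxo15* (0.46), *Rex2* (0.50) and *Glrx2*, a glutaredoxin gene (0.54), followed among 119 listed probes. For *Fbxo15* the nearest listed probes were *LOC434179* (0.36), *Phf11* (0.37), *Jam2* (0.41), *Rex2* (0.46) and *Glrx2* (0.46), and *Zfp296* came 6th. The RM differences of *Jam2* and *LOC434179* were 1.05 and 1.20 (adjusted p = 0.199 and 0.185, limma), and their RA-Zscan4- levels were 1.82 and 0.97 lower than the RM-Zscan4- mean on the log2 scale. The likeness used the RA arrays on which the list was chosen and describes these 8 arrays.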

How the data were processed

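Per the file headers, the authors made the deposited intensity values with Agilent Feature Extraction 7.5.1, which subtracted local background and normalised the dyes within each array. They also deposited a matrix of log10 values; 99.52% to 99.54% of these equalled the log10 ratio of Cy3 to Cy5, shifted by the probe's mean log10 Cy5, within 0.001. The labels state total RNA from TRIzol, whereas the methods name a poly-A kit, a smaller array and an earlier software version. Arrays had 44290 spots, with 24 to 228 outlier-flagged probe spots left out. Median Cy3 was 114.4 to 240.7 and Cy5 254.3 to 501.2 above background; with no dye swap, a dye bias of a probe is common to all arrays. Signal over background and the number of arrays limit the precision.

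From the deposited intensities, log2 of processed Cy3 over Cy5 was fitted for 42006 probes with limma 3.58.1 in R 4.3.3 (4 group means, all 8 arrays, Benjamini-Hochberg adjustment, threshold 0.15). The members and lists were chosen with earlier results of these data known. Named genes were the members, *Zscan4*, 2 lists by function, the 5 nearest profiles and the RA neighbours. RM replicate numbers paired the arrays (r 0.388, 0.562 and 0.592), so blocked values are given for the members and blocked counts for the lists. With the block *Cand1*, *EG668730*, *Jam2* and *LOC434179* passed too (adjusted p = 0.0478, 0.0857, 0.135 and 0.122, limma), where 1.93% of all probes did. Alternatives were Cy3 alone, other background correction and normalisation, the deposited matrix, filters, thresholds, batches, the methods' t-test and leaving out each RM array. The fit was tested on simulated data. With 3 arrays against 3, an exact two-sided permutation p cannot go below 0.1. The RA pair had no test.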

Additional observations from a re-analysis of the deposited data

How the results depend on the processing

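In RM, *Fbxo15* and *Zfp296* were higher in Zscan4+ under every alternative run. Every run used arrays of the same RM set, and changes of test, block, threshold or filter left the mean difference unchanged. The shared direction is therefore no independent check. Both genes were higher in RA too, but that pair chose the genes, so its direction is no check either. The RM call of *Fbxo15* (0.86, not called) changed to called by Cy3 alone (1.94), by normexp with loess (1.10), with the replicate block (0.86, adjusted p = 0.11, limma) and by Cy3 alone with that block (1.94, adjusted p = 0.00839, limma). That of *Zfp296* (0.95) changed to called by Cy3 alone with the block (1.02) and without RM-Zscan4- replicate 3 (1.27). The RA difference of *Fbxo15* moved to 3.43 by Cy3 alone. Leaving out single arrays gave 0.68 to 1.11 for *Fbxo15* and 0.72 to 1.27 for *Zfp296*. Within the batch of replicates 1 and 3 the differences were 0.93 and 0.78 (adjusted p = 0.701 and 1.0, limma), and in that of replicate 2 0.72 and 1.30, with no test; with batch as a block adjusted p was 0.167 and 0.444 (limma). The 146 probes higher in RM became 75 at a false discovery rate of 0.05, 809 with the replicate block, 477 by Cy3 alone with that block, 46 within the batch of replicates 1 and 3, and 67 to 161 with single arrays left out, with the lowest count reached when either RM-Zscan4+ replicate 1 or RM-Zscan4- replicate 2 was dropped, and 70 when RM-Zscan4- replicate 1 was. The 81 that were also 3-fold higher became 123, 41 and 52 to 93 under the last 3 settings, with 52 when RM-Zscan4+ replicate 1 was dropped and 54 when RM-Zscan4- replicate 2 was. The methods' t-test called 0 in either count after adjustment and 468 at an unadjusted p under 0.05, where limma had 1405. The cause of these changes was not tested. The Cy5 signal of *Fbxo15* was as low as 1.67 times the 95th percentile of the negative controls.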
